A study of Homo sapiens with 4 samples.

Results

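The genes described here are 49 genes of the G1/S transition and of DNA replication, set as a list of symbols from the transcription factors that open S phase to the enzymes that copy DNA. Each gene was represented by the probe set with the highest mean intensity among those that carry its symbol alone. All 49 were found among the 18417 genes named on the array. DBF4 was too dim to be tested, so 48 entered the tests, which ran over 13813 genes.

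The genes were measured on 4 Affymetrix arrays in MDA-MB-231, a long-established cell line from human breast cancer that lacks hormone receptors. On 2 arrays the cells carried a control hairpin RNA of no specific target (shNS), and on 2 they carried one directed at DBC1 (shDBC1), a nuclear protein whose gene is now called CCAR2. Both lines grew in serum-containing medium without treatment. The 2 arrays of each line are independent biological replicates, numbered 1 and 2. What a replicate number shares between the lines, the hairpin sequences, and whether a line is 1 clone or a pool were not stated in the labels.

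E2F transcription factors are held inactive by RB-family proteins in G1, and are released when cyclin-dependent kinases phosphorylate those proteins. Cyclin E with CDK2 then drives entry into S phase, in which origins that were licensed with the MCM helicase are fired by CDC7 and CDK activity. In proliferating cells the transcripts of this programme are made together around the G1/S boundary, so their summed level in a culture is known to follow the share of cells passing through that stage. In such bulk samples a smaller number of cells at a stage cannot be told apart from less RNA per cell.

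E2F factors bind short GC-rich elements close to transcription start sites. RefSeq promoter windows of the GRCh38.p14 build, running from 250 bases before to 50 bases after a start, were available for 43 of the 49 genes. The motif TTTNNCGC, read on both strands and with overlapping matches counted, was in a window of 26 of the 43 genes (60.5%), against 11% of the 14239 genes with windows and a probe set of their own. By window, it was in 48.2% of 56 windows of these genes and in 6.89% of all 35116 windows. Further motifs served as a contrast with mitotic genes. The motif TTTGAA, the letters of the cell cycle homology region found in many mitotic promoters, was in 4 of the 43 genes (9.3%) and in 17 of 25 genes of a G2/M list (68%). The CCAAT box, a binding site of the NF-Y factor, was in 25 of the 43 (58.1%) and in 23 of the 25 (92%). Of the 14239 genes, 15.7% had TTTGAA and 42.2% had CCAAT. TTTNNCGC was in 3 of the 25 G2/M genes (12%). It was in 10 of 24 other genes of the replication machinery (41.7%). A match describes letters and does not show that a factor was bound.

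The following stretches of 60 bases show the match in genes whose values are given below, 1 or more for each role in replication. Capitals mark TTTNNCGC or its reverse complement, and each line runs 5′ to 3′ in the direction of the gene. CDC25A, which encodes the phosphatase that activates CDK2, is shown at chr3:48188434-48188493 on the minus strand. E2F3, an activating E2F, is shown at chr6:20401794-20401853 on the plus strand. MCM6, a helicase subunit, is shown at chr2:135876502-135876561 on the minus strand, where 2 matches on opposite strands overlap. GINS3, a subunit of the GINS helicase cofactor, is shown at chr16:58392414-58392473 on the plus strand. The clamp loader gene RFC3 is shown at chr13:33818062-33818121 on the plus strand. POLA2, which encodes a subunit of DNA polymerase alpha, is shown at chr11:65261877-65261936 on the plus strand. PCNA, the gene of the sliding clamp, is shown at chr20:5126654-5126713 on the minus strand. TYMS, the thymidylate synthase gene, is shown at chr18:657582-657641 on the plus strand. UHRF1, whose product brings the maintenance DNA methyltransferase to replicated DNA, is shown at chr19:4909441-4909500 on the plus strand.
CDC25A: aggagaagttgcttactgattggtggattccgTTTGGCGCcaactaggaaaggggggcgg
E2F3: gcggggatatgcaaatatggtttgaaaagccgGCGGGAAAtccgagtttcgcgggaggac
MCM6: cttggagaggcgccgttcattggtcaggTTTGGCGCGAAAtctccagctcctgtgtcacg
GINS3: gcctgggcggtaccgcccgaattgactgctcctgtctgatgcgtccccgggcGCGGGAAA
RFC3: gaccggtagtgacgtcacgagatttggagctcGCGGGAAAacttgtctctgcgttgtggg
POLA2: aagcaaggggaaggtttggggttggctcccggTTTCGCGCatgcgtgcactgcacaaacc
PCNA: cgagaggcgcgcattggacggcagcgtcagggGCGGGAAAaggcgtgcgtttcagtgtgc
TYMS: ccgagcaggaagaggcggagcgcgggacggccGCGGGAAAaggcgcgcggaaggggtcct
UHRF1: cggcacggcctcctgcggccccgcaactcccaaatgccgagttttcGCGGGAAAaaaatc

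Values are log2 intensities that the authors normalised between arrays with RMA, so a difference of 1 is a change of 2-fold. CCAR2 read 9.62 and 9.41 on the shNS arrays and 8.76 and 8.16 on the shDBC1 arrays. Both shDBC1 arrays thus lay below both shNS arrays, by 1.06 on average, with a limma adjusted p over all genes of 1, and of 0.0232 with replicate number as a block. Array medians ran from 7.32 to 7.40. The closest arrays were the 2 numbered 1 (Pearson r = 0.995 across probe sets, a description only). Of 5 genes typical of these cells (VIM, CD44, AXL, ZEB1, CAV1), all read between 10.31 and 13.08. ESR1 and PGR, the hormone receptor genes expected to be low, read 6.51 or less, while GATA3 and EPCAM reached 9.04 and 9.61.

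Between the lines, the G1/S and replication genes showed little difference on average. Their median shDBC1 minus shNS difference was 0.028 on the log2 scale, against 0.0065 over all tested genes, with 22 of 48 below zero and 26 above. In limma with line as the only term, 0 of the 48 passed an adjusted p of 0.05, as for all genes (0%). At an unadjusted p under 0.05 there was 1 of 48, GINS3, against 3.44% of all genes. Both shDBC1 arrays lay below both shNS arrays for 4 members (E2F3, E2F7, CDK2 and GINS3), while 13.2% of all genes did so. They lay above for 1 tested member, MCM6, against 11.6% of all genes. In this fit the difference between replicate numbers, described next, is part of the spread within each line.

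Within same-numbered arrays the picture differed by number. In the arrays numbered 1, 38 of the 48 members were higher in shDBC1, with a median difference of 0.077. In the arrays numbered 2, 17 of the 48 were higher and the median was -0.083. For 41 of the 48 the difference was more positive in the first pair than in the second, against 52.1% of all tested genes. A change from positive to negative was found for 21 of the 48, against 2884 of all 13813 tested genes. The median over members also depended on which array was left out, since leaving out a single array unbalances the replicate numbers between the lines. It was 0.15 without shNS replicate 1 and -0.14 without shNS replicate 2. It was -0.23 without shDBC1 replicate 1 and 0.26 without shDBC1 replicate 2.

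**Figure D1:**
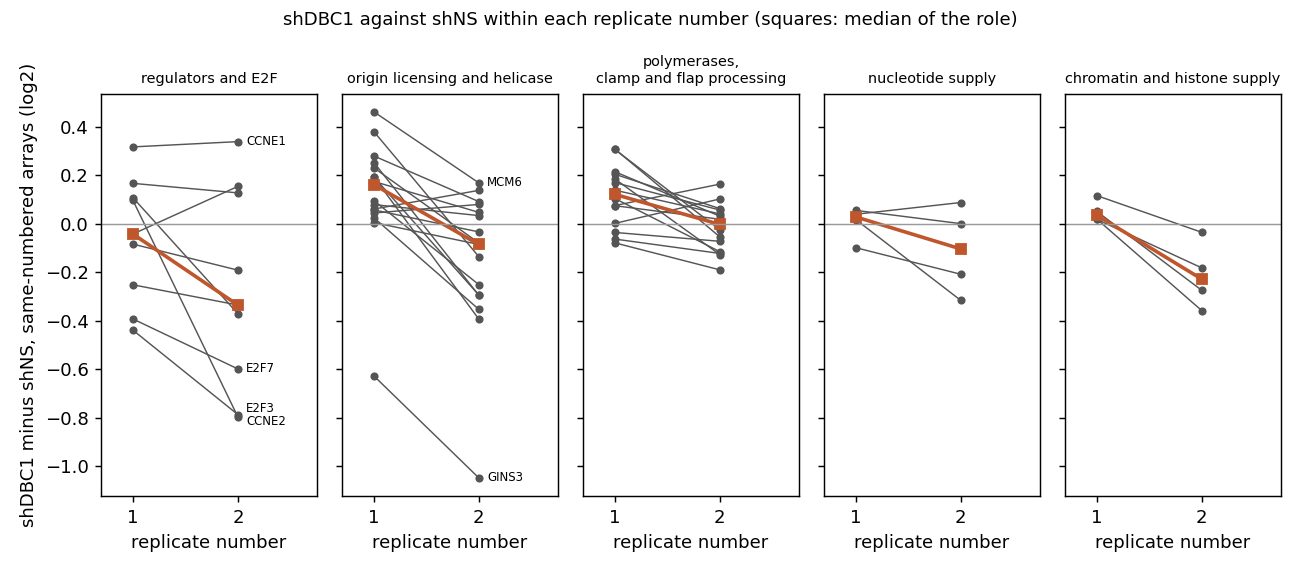
Each grey line joins a member's shDBC1 minus shNS difference (log2) in the arrays numbered 1 to that in the arrays numbered 2, by role, and squares give the median of the role. Most lines slope downwards, 41 of 48, and GINS3, E2F3 and E2F7 are among the 9 members below zero in both pairs.

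The arrays numbered 2 read lower than those numbered 1 for every tested member in both lines, 48 of 48, whereas 34.6% of all tested genes were lower in both lines. The mean over the 48 members was 10.2 and 9.85 on the shNS arrays 1 and 2, and 10.2 and 9.72 on the shDBC1 arrays 1 and 2. The mean over all tested genes stayed between 8.98 and 9.01. The median difference, number 2 minus number 1, was -0.37, or 1.29-fold lower, against -0.021 for all genes, and single members ran from -0.97 to -0.062. Both arrays numbered 2 lay below both numbered 1 for 42 of the 48, against 27.3% of all genes. Of the 48, 26 were among the 5% of tested genes with the most negative differences and 36 among the lowest 10%.

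In a limma fit of replicate number that kept line as a term, 19 of the 48 members passed as lower and 0 as higher. Over all genes 3.21% passed as lower and 8.12% as higher. The count of members depended on the fit, from 6 with no intensity filter to 37 with a trended and robust prior, and was 0 when line was left out of the model. The 6 were CDC25A, CCNE1, MCM10, ORC1, RFC3 and UHRF1. The other members named below as passing between numbers did not pass without that filter, and none passed without the line term. The number labels are not a condition of the study, so this test describes 2 arrays against 2. That these genes were lower on the arrays numbered 2 was already known from an earlier look at these data and is not independent support.

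**Figure D2:**
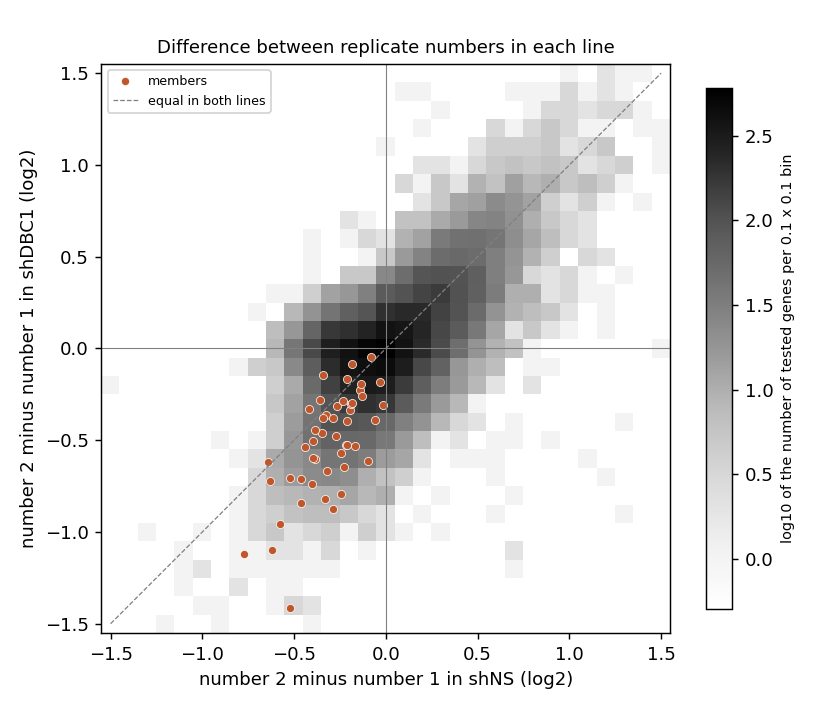
Number 2 minus number 1 (log2) in shNS (horizontal) is set against the same in shDBC1 (vertical). Grey cells count tested genes in bins of 0.1, orange points are the 48 members, all at negative values on both axes, and the dashed line marks equal differences.

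The difference between numbers was the wider one in shDBC1 for most members. Its median was -0.29 in shNS and -0.49 in shDBC1, and it was more negative in shDBC1 for 41 of 48 members, which is the pair contrast above arranged the other way. With 1 array per line and number this contrast between lines has no test. Across members the differences in the 2 lines had a Pearson r of 0.68 (n = 48 genes, which share the 4 arrays), against 0.65 over all 13813 genes, given as a description.

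**Figure D3:**
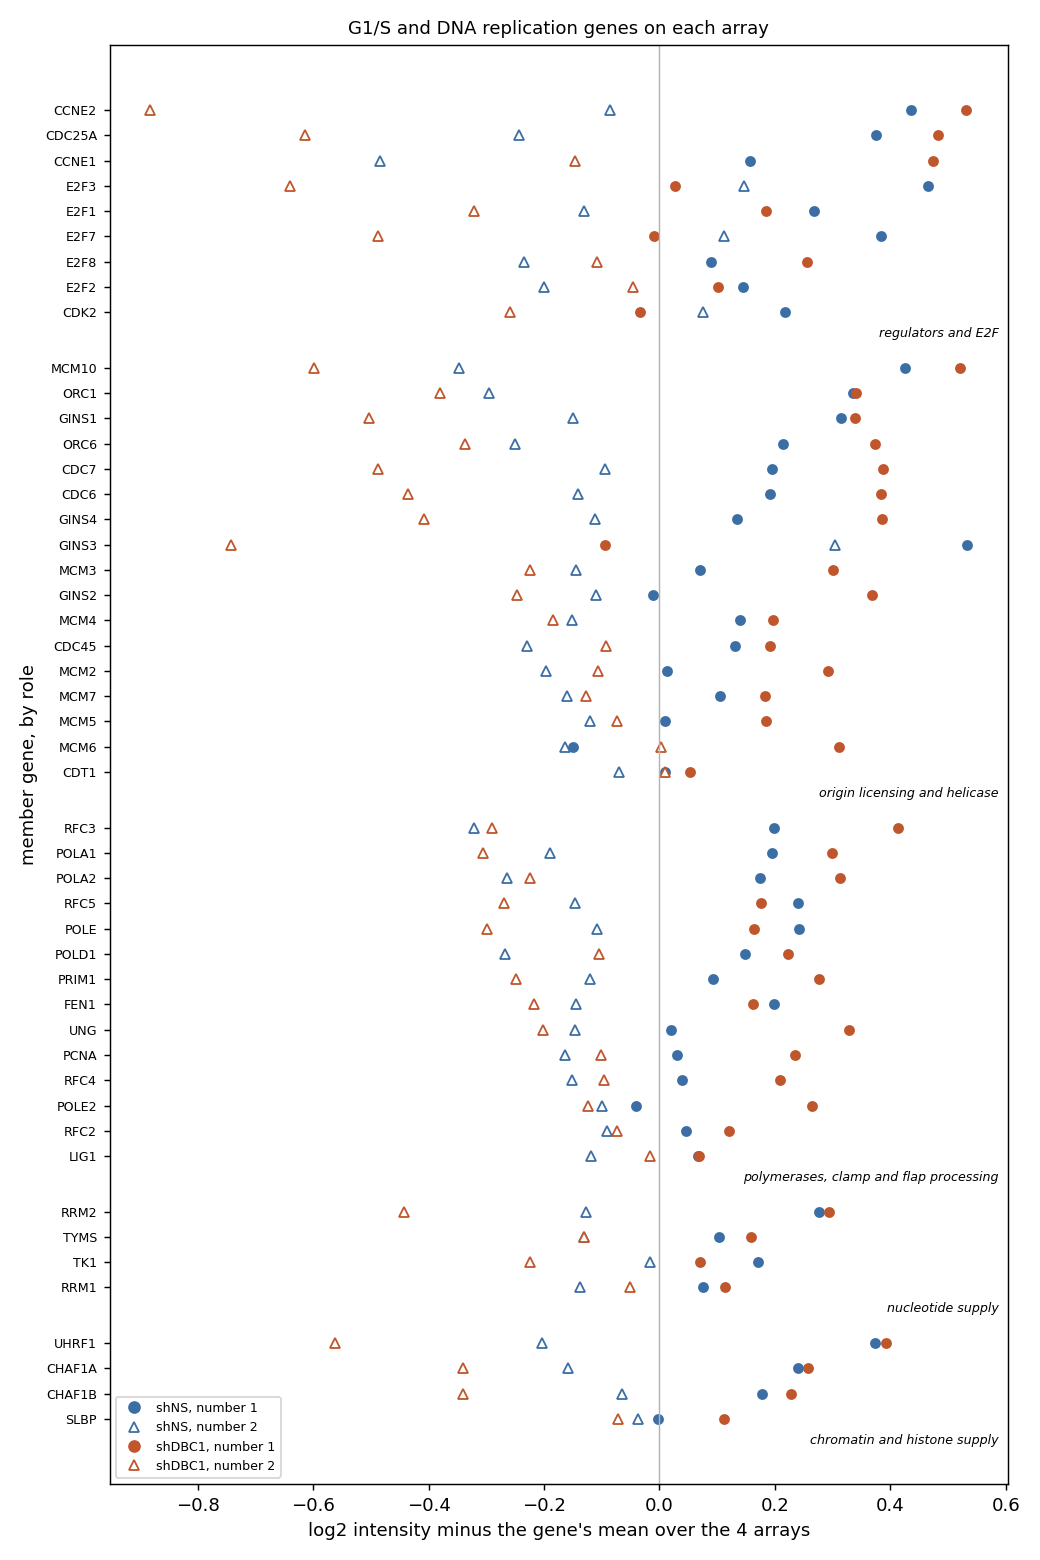
Every tested member is a row, with its log2 intensity on each array minus its own mean over the 4 arrays. Filled circles (number 1) lie to the right of open triangles (number 2) of the same colour in every row, for shNS (blue) and shDBC1 (orange).

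Among the 9 regulators, the cyclin E genes and the CDK phosphatase CDC25A showed the widest differences between numbers. CCNE2, a cyclin E gene, read 10.36 and 9.84 on the shNS arrays and 10.46 and 9.05 on the shDBC1 arrays. It fell by 0.97 between numbers, 1.96-fold (limma adjusted p 0.0215), with a difference of -0.52 in shNS and -1.41 in shDBC1. CCNE2 did not pass with a trended and robust prior (limma adjusted p 0.132). Like other members, CCNE2 also did not pass without the intensity filter (limma adjusted p 0.0761) or without the line term (0.153). CDC25A read 9.25 and 8.63 in shNS and 9.36 and 8.26 in shDBC1. It was 1.81-fold lower in number 2 (limma adjusted p 0.00973), with no overlap between the numbers. CCNE1, the other cyclin E gene, read 9.12 and 8.48 in shNS and 9.44 and 8.82 in shDBC1. Unlike its paralogue it was higher in shDBC1 in both pairs, by 0.32 and 0.34, while its drop between numbers was nearly equal in the lines, -0.64 in shNS and -0.62 in shDBC1 (1.55-fold over both, limma adjusted p 0.0106).

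The line differences of the E2F genes had both signs, none passed in limma, and contrasts between these genes were not tested. E2F3, an activating E2F, read 8.79 and 8.47 in shNS and 8.35 and 7.68 in shDBC1. Its shDBC1 minus shNS difference was -0.61 (SE 0.26, 95% interval -1.31 to 0.085; limma adjusted p 1). E2F7, an atypical repressor of E2F targets, read 11.14 and 10.86 in shNS and 10.74 and 10.27 in shDBC1, a difference of -0.50 (SE 0.21, 95% interval -1.04 to 0.054; limma adjusted p 1). For both genes the shDBC1 arrays lay wholly below the shNS arrays. E2F8, the other atypical repressor, had a difference of 0.15, E2F2 of 0.055 and E2F1 of -0.14, each with overlapping lines. CDK2, the kinase partner of cyclin E, was also lower on both shDBC1 arrays, by 0.29 (SE 0.13). Between numbers E2F1 and E2F3 passed as lower (-0.45 and -0.49), E2F3 with overlapping numbers, while E2F2, E2F7, E2F8 and CDK2 ranged from -0.18 to -0.37 and did not pass.

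Of the 17 tested genes of origin licensing and the replicative helicase, 6 passed as lower in number 2, against 3.21% of all genes. These were MCM10, ORC1, GINS1, ORC6, CDC6 and CDC7. MCM10, which helps to activate the helicase, read 9.94 and 9.17 in shNS and 10.04 and 8.92 in shDBC1, a 1.93-fold drop between numbers (limma adjusted p 0.00496). ORC1, the largest subunit of the origin recognition complex, read 8.81 and 8.18 in shNS and 8.81 and 8.09 in shDBC1. Its lines were thus nearly equal within each number, and it was 1.60-fold lower in number 2 (limma adjusted p 0.00865). GINS1 read 10.45 and 9.99 in shNS and 10.48 and 9.64 in shDBC1 (1.57-fold lower, limma adjusted p 0.0174). CDC6, which loads MCM at origins, and ORC6 differed by -0.58 and -0.59. CDC7, the kinase that fires origins, differed by -0.58.

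The 6 subunits of the MCM2 to MCM7 ring differed less between numbers, and 0 of them passed in limma, with unadjusted p under 0.05 for 4. Over all genes 10.5% were lower at that unadjusted level, and 38 of the 48 members were. Their differences ran from -0.37 for MCM3 through -0.34 for MCM4 to -0.16 for MCM6. CDT1, the loading factor that is known to be removed by protein degradation in S phase, had the smallest difference of all members, -0.062. Between lines, MCM6 read 9.87 and 9.85 in shNS and 10.33 and 10.02 in shDBC1. Both shDBC1 arrays were above both shNS arrays, by 0.31 (SE 0.14, 95% interval -0.065 to 0.69; limma adjusted p 1). The other 5 ring subunits had line differences from 0.011 to 0.18, with overlapping arrays.

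GINS3 had a wider difference between the lines than the other subunits of its complex, a contrast between genes that was not tested. It read 9.50 and 9.27 in shNS and 8.87 and 8.22 in shDBC1, so the lines did not overlap. The difference of -0.84 (SE 0.25, 95% interval -1.49 to -0.18) was 1.79-fold and had a limma adjusted p of 1. It ran from -1.16 to -0.51 when single arrays were left out. With replicate number as a block, GINS3 was the 1 of 48 members that passed, against 0.818% of all genes. GINS1, GINS2 and GINS4 had line differences of -0.16, 0.12 and -0.022, each with overlapping arrays. GINS2, GINS3 and GINS4 differed by -0.36, -0.44 and -0.52 between numbers and did not pass. CDC45, which completes the helicase with MCM and GINS, differed by 0.099 between lines and -0.32 between numbers. DBF4, the activating subunit of CDC7, read 5.48 and 5.53 in shNS and 6.10 and 5.63 in shDBC1. All its readings lay below the filter level of 6.58, so no test was made.

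Of the 14 genes for polymerases, the clamp and its loader, and flap processing, 5 passed as lower in number 2. All 14 had both arrays numbered 2 below both numbered 1. Over all genes 3.21% passed as lower and 27.3% had both arrays numbered 2 below. RFC3 read 10.91 and 10.38 in shNS and 11.12 and 10.42 in shDBC1, and was 1.53-fold lower in number 2 (limma adjusted p 0.0135). POLA1, the catalytic subunit of polymerase alpha, read 9.58 and 9.19 in shNS and 9.68 and 9.08 in shDBC1 (-0.49, limma adjusted p 0.0286). Its partner POLA2 read 9.79 and 9.35 in shNS and 9.93 and 9.39 in shDBC1 (-0.49, limma adjusted p 0.0253). These subunits of 1 enzyme thus had nearly the same difference. The leading-strand polymerase gene POLE (-0.41) and RFC5 (-0.42) also passed. RFC2 and RFC4, of the same clamp loader, differed by -0.17 and -0.25 and did not pass.

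Between the lines, the 14 genes of this role had differences from -0.13 to 0.14, with overlapping arrays for each. POLE2 read 10.23 and 10.17 in shNS and 10.54 and 10.15 in shDBC1, a difference of 0.14 (95% interval -0.29 to 0.58; limma adjusted p 1). PCNA read 10.795 and 10.601 in shNS and 10.999 and 10.663 in shDBC1, a difference of 0.13 (95% interval -0.30 to 0.56; limma adjusted p 1). POLD1, PRIM1, FEN1, LIG1 and UNG, which encode the lagging-strand polymerase, the primase, the flap nuclease, the nick ligase and the uracil glycosylase, lay between -0.054 and 0.13.

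In nucleotide supply, RRM2 was the 1 of 4 members that passed between numbers, against 3.21% of all genes passing as lower. RRM2, the S-phase-regulated subunit of ribonucleotide reductase, read 10.92 and 10.51 in shNS and 10.93 and 10.20 in shDBC1 (1.48-fold lower in number 2, limma adjusted p 0.0241). Its partner RRM1 differed by -0.19, TYMS by -0.26 and the thymidine kinase gene TK1 by -0.24, and none of these 3 passed. Between the lines RRM2 differed by -0.15 (95% interval -0.93 to 0.63; limma adjusted p 1). TYMS read 12.01 and 11.78 in shNS and 12.07 and 11.78 in shDBC1, so the lines nearly coincided. TK1 read 11.72 and 11.54 in shNS and 11.62 and 11.33 in shDBC1, a line difference of -0.15 (95% interval -0.56 to 0.25; limma adjusted p 1).

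Of the 4 genes that couple chromatin to replication, UHRF1 and CHAF1A passed as lower in number 2, against 3.21% of all genes. UHRF1 read 11.30 and 10.72 in shNS and 11.32 and 10.37 in shDBC1, a 1.70-fold difference (limma adjusted p 0.0106). CHAF1A and CHAF1B encode subunits of the histone chaperone CAF-1. CHAF1A read 9.94 and 9.54 in shNS and 9.96 and 9.36 in shDBC1 (-0.50, limma adjusted p 0.0274). CHAF1B read 10.44 and 10.20 in shNS and 10.50 and 9.93 in shDBC1 (-0.40, limma adjusted p 0.0650). Between the lines UHRF1 differed by -0.17 (95% interval -1.18 to 0.84) and CHAF1B by -0.11 (95% interval -0.71 to 0.49), both with a limma adjusted p of 1. SLBP, which binds the stem-loop of histone mRNAs, differed by -0.11 between numbers. All 4 were slightly higher in shDBC1 in the arrays numbered 1, by 0.018 to 0.12, and lower in those numbered 2, by -0.036 to -0.36.

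Other genes of the pathway, taken from 4 lists of 72 genes, gave a picture between numbers that differed by list. Of 23 tested regulators of G1/S, 14 were below zero, with 1 passing as lower and 2 as higher. These counts were near the shares over all tested genes, of which 54.2% were below zero, 3.21% passed as lower and 8.12% as higher. CDK6, a cyclin D partner, was the lower one (-0.49, limma adjusted p 0.0385). RBL2, the RB-family protein p130 of resting cells, read 8.52 and 9.08 in shNS and 8.53 and 9.23 in shDBC1. It was 1.55-fold higher in number 2 (limma adjusted p 0.0112). CDKN1B, the CDK inhibitor p27, was higher by 0.40 (limma adjusted p 0.0441). In these 2 genes both arrays numbered 2 lay above both numbered 1, as in 4 of the 23 regulators and 3570 of all 13813 tested genes. Both lay below for 9 of the 23, among them the CDK inhibitor genes CDKN2A and CDKN2B. The same was found for 42 of the 48 members and 27.3% of all genes.

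The 30 other genes of the replication machinery were closer to the members. Of these, 27 were below zero (90%), with 7 passing as lower (23.3%) and 1 as higher. Over all tested genes 54.2% were below zero, 3.21% passed as lower and 8.12% as higher. Both arrays numbered 2 lay below both numbered 1 for 22 of the 30 (73.3%), against 27.3% of all genes. The checkpoint mediator CLSPN differed by -1.20 and TIPIN of the fork protection complex by -0.78, while POLD4, a small subunit of polymerase delta, differed by 0.69. In nucleotide supply CTPS1, a CTP synthase gene, passed at -1.10 and TK2, the mitochondrial thymidine kinase, at 0.64, of 9 tested. The maintenance methyltransferase gene DNMT1 (-0.53) and the helicase HELLS (-0.43) passed among 8 chromatin genes. Between the lines 0 of the 70 genes passed in limma, and 1 had an unadjusted p under 0.05, the deaminase gene DCTD at -0.48 (SE 0.14).

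Lists of G2/M genes and of histone genes, which are transcribed in S phase, were set beside the members, whose median was -0.37. Of 30 tested G2/M genes, 24 were below zero with a median of -0.19, and KIF23, MKI67 and CDC20 passed as lower (-0.56, -0.48 and -0.44). Of 34 tested replication-dependent histone genes, 31 were below zero with a median of -0.21, and H2BC14 and H2BC17 passed. Over all genes 54.2% were below zero and 3.21% passed as lower. Between the lines the same lists had medians of -0.15 and -0.34, with 30 of 30 and 33 of 34 below zero. Below zero were 22 of the 48 members and 6594 of all 13813 tested genes. In limma 0 genes of either list passed, with unadjusted p under 0.05 for 1 G2/M gene (AURKA) and 6 histone genes, against 3.44% of all genes. Both shDBC1 arrays lay below both shNS arrays for 8 of the 30 and 20 of the 34, against 13.2% of all genes. Because histone genes resemble each other closely, their single values are uncertain.

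**Figure D4:**
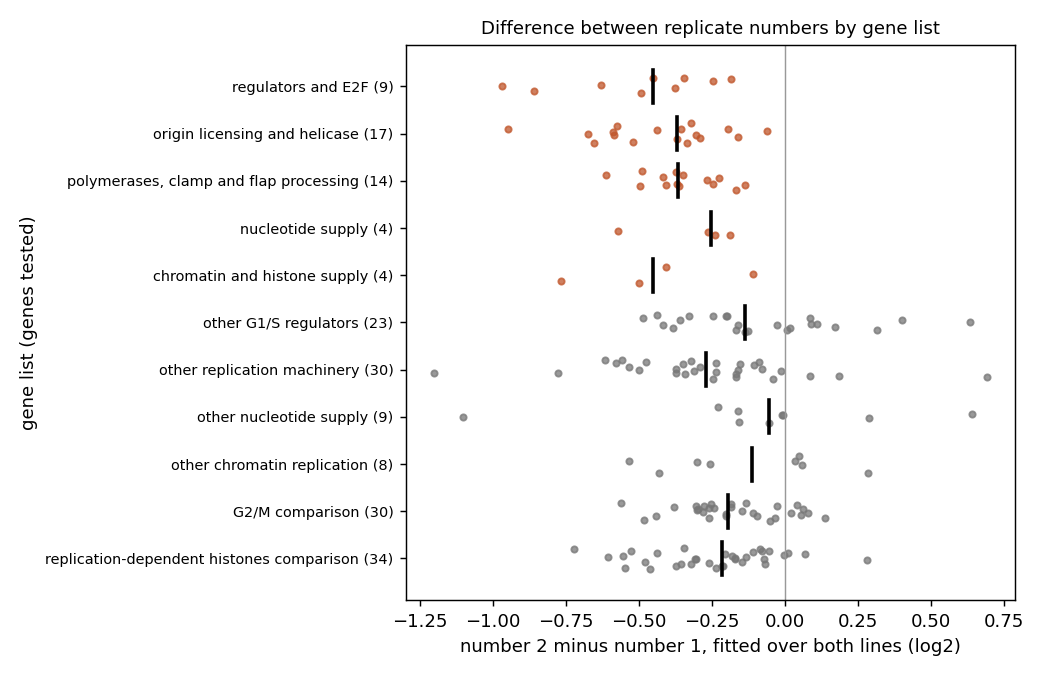
Points are genes, bars the median of each list, and the horizontal axis is number 2 minus number 1 fitted over both lines (log2). The 5 roles of the members (orange) have medians from -0.25 to -0.45, and the other lists (grey) from -0.056 to -0.27.

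Some markers of other cell types also read higher on the arrays numbered 2. The mean level of 4 fibroblast markers was 6.37 to 6.38 on the arrays numbered 1 and 6.76 to 7.23 on those numbered 2. That of 3 leukocyte markers was 6.36 to 6.38 and 6.64 to 6.73, and that of 4 endothelial markers 6.56 to 6.65 and 6.67 to 6.86. Higher readings in number 2 in both lines were found for 2 of 4 fibroblast markers (LUM and PDGFRB) and 1 of 4 endothelial markers (PECAM1). They were also found for 2 of 3 leukocyte markers (CD14 and PTPRC), 5 of 11 in all, against 33.3% of all tested genes. That share is over tested genes only, whereas 2 fibroblast, 1 endothelial and 2 leukocyte markers were below the filter level. PTPRC, which all leukocytes express, stayed at 4.54 or less and DCN at 4.64 or less, both below the filter level. The epithelial genes CDH1 and EPCAM passed as higher in number 2 (limma adjusted p 0.00169 and 0.00432), as did CD14 and PDGFRB (0.00291 and 0.00260). CDH1 read 6.93 and 6.79 on the arrays numbered 1 and 8.06 and 8.04 on those numbered 2. Of the 5 genes expected to be low in these cells (ESR1, PGR, CDH1, GATA3, EPCAM), 2 were higher in number 2 in both lines. The same was found for 2 of the 5 genes typical of these cells. CCAR2 itself differed by -0.40 between numbers (limma adjusted p 0.0796). The part of any of these in the difference between numbers was not tested.

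Members were also set apart by the E2F-type match, as a description with no test. The difference between numbers had a median of -0.41 in the 26 genes with TTTNNCGC in a window (from -0.86 to -0.062) and -0.37 in the 16 tested genes whose windows lacked it (from -0.95 to -0.11). The other 6, CCNE2, CDK2, E2F8, GINS4, MCM4 and MCM5, had a median of -0.34. MCM10 and CCNE1, among the widest differences, were without the match in these windows, while CDC25A and UHRF1, also among the widest, had it. CDT1, with the smallest difference, had the match, and SLBP (-0.11) did not.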

How the data were processed

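The deposited file holds 1 normalised log2 intensity per probe set and array for 33297 probe sets. The authors used GCOS and RMA (background correction, normalisation between arrays, probe summary), per the submitters' processing notes; versions and filters were not given in the sources used here. The log2 scale was read from the values (2.52 to 14.11).

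Gene names came from the platform's annotation: 19460 probe sets had 1 symbol, 1754 several and 12083 none. The brightest probe set stood for each gene, and genes with a mean below the 25th percentile (6.58) were left out. limma 3.58.1 in R 4.3.3 was fitted over 13813 genes (two-sided, Benjamini-Hochberg, threshold 0.05), once with line alone (2 residual degrees of freedom) and once with replicate number and line (1). RMA compresses folds of dim genes, and 2 arrays per line limit the precision.

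On data simulated for the number comparison over 13813 genes, 86.4% of 200 genes changed by 0.5 (log2) were recovered, with a mean of 26.4 false calls. For the line comparison 83.65% were recovered, with 14.6 false calls, but these data were simulated without the difference between numbers that widens the spread in the real lines. With more false calls than the threshold allows, adjusted p-values near the threshold are optimistic.

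Members, lists and alternatives were chosen with earlier results of these data known. Values on every array are given for CCAR2 and, in each role, for the 3 members with the widest difference between numbers and the 2 with the smallest p between lines; up to 3 genes of each other list were named by smallest p in either comparison, and the other members, markers and the sequences shown were picked for the text with values known. Alternatives were other filters, scalings, probe set rules and priors, a replicate block, and leaving out arrays.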

Additional observations from a re-analysis of the deposited data

Results flagged for a closer look

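With 1 array per line and number, the difference between the pairs was not tested. The median shDBC1 minus shNS difference over members pointed one way in the arrays numbered 1 and the opposite way in those numbered 2. Signs differed between the pairs for 22 of the 48 members and for 5845 of all 13813 tested genes, a similar share. Of the 22, 21 were positive in the first pair and negative in the second, as were 2884 of the 13813. The median over the 48 members was 0.077 in the first pair and -0.083 in the second. Of the members named for their line comparison, UHRF1 had 0.019 and -0.36, RRM2 0.017 and -0.32, CHAF1B 0.050 and -0.27, and POLE2 0.31 and -0.025.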

How the results depend on the processing

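Between the lines, 0 genes and 0 members passed under each filter, scaling, probe set rule and prior tried (360 to 584 genes at an unadjusted p under 0.05). Leaving out an array leaves 1 array in its line, assumed to vary like the other line, so the 0 calls there say nothing about stability. With a replicate block 113 genes passed (94 lower, 0.681% of genes tested), 1 of them a member, GINS3 (limma adjusted p 0.0343), and CCAR2 (limma adjusted p 0.0232). At an unadjusted p under 0.05 the block gave 6 of 48 members and 1612 of 13813 genes. Same-numbered arrays deviated together from their line means (correlation 0.653 across genes). With 2 arrays per line this restates the Pearson r of 0.65 given above for the differences between numbers and is not a second observation. With 2 pairs and no label saying what a number shares, it does not establish a pairing. With single arrays left out, which unbalances the numbers, the median over members ran from -0.23 to 0.26. The differences of RRM2 ran from -0.52 to 0.22, CHAF1B from -0.40 to 0.17, UHRF1 from -0.65 to 0.31, POLE2 from -0.054 to 0.33 and PCNA from -0.035 to 0.30, each reversing without at least 1 array.

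Between numbers, 1565 genes and 19 members passed. With no filter 654 genes and 6 members passed, with a trended and robust prior 2712 and 37, with quantile normalisation repeated 2085 and 29, and without the line term 0 and 0 (2856 genes at an unadjusted p under 0.05). All tested members stayed below zero in each of these, with medians from -0.38 to -0.32 over the settings, and -0.49 to -0.29 in single lines. The cause of these changes in count was not tested.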

Other observations

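UHRF1 was the only member with more than 1 probe set of its own. Its dimmer probe set read 7.05 and 6.70 in shNS and 6.93 and 6.98 in shDBC1, so it was lower in number 2 in shNS (-0.34) and not in shDBC1 (0.054), where the brighter probe set differed by -0.95.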
